A study of Drosophila melanogaster with 14 samples.

Results

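The genes described are the nuclear-encoded subunits of oxidative phosphorylation, measured in *Drosophila* embryos that lacked one or the other C-terminal class of the kinase Shaggy (Sgg). They were taken by name: every gene whose symbol in the authors' tables of either experiment starts with ND-, COX4 to COX8, UQCR-, ATPsyn, Cyt-c1 or RFeSP, or is SdhA, SdhB, SdhC or SdhD. This gave 67 of the 17493 genes in the count table. Complex I had 33 of them, complex II 4, complex III 9, complex IV 9 and complex V 12. All 67 passed the filter on low counts in the isoB experiment and 65 in the isoA experiment, where ND-51L1 and COX6AL did not. Of the 67, 61 had 74 to 37524 counts in each library. The other 6 are paralogues with an L in the symbol (ND-51L1, Cyt-c1L, UQCR-11L, COX4L, COX6AL and ATPsynepsilonL), with 0 to 61 counts, and were set apart after their counts were seen.

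Shaggy is the fly Glycogen Synthase Kinase 3, and exon deletions made by CRISPR/Cas9 in *THattP40* embryos removed the last exon of either the Sgg-PA or the Sgg-PB proteoforms. The isoA null samples (n = 3) were embryos of a homozygous sggisoA stock, which is viable and fertile and lacks maternal and zygotic product. Their controls (n = 3) were embryos of the progenitor strain, and neither group was sorted. The isoB null samples (n = 4) were non-fluorescent embryos of sggisoB/FM7 GFP mothers and FM7 GFP/Y fathers. These embryos die late in embryogenesis or as early larvae and still hold maternal Sgg-PB product. Their controls (n = 4) were non-fluorescent embryos too, of a cross in which, by the labels, the progenitor chromosome took the place of sggisoB. The study gives the isoB null embryos as hemizygous males, and by the cross in the labels their non-fluorescent controls would be males too, whereas the isoA embryos were not sorted by sex. Between the experiments, sex and genotype cannot be told apart. All embryos were whole and aged 10 to 15 h, and their poly(A) RNA gave single-end reads. Nothing in the labels ties a sample to a particular cage or collection, so the p-values measure the spread between these samples.

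The respiratory chain sits in the inner mitochondrial membrane. Complex I passes electrons from NADH, and complex II from succinate, to ubiquinone. Complex III passes them on to cytochrome c and complex IV from there to oxygen, and complexes I, III and IV pump protons that complex V, the ATP synthase, uses to make ATP. Most subunits are encoded in the nucleus, translated in the cytosol and imported, and are assembled with a small set of subunits encoded by mitochondrial DNA, so each complex other than complex II needs the products of both genomes. In *Drosophila* the egg is loaded with maternal mitochondria, and transcripts of the chain are abundant in the muscle that forms during the second part of embryogenesis.

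Total counts on genes ran from 15841397 to 18311205 in the isoA null samples, 8082962 to 12800846 in their controls, 14378062 to 25124367 in the isoB null samples and 11189291 to 23798611 in their controls. One control library stood apart in each experiment. Control 3 of the isoA experiment was the highest of its 6 libraries for 58 of the 61 subunits, and control 2 of the isoB experiment was the highest of its 8 for 57. Both were singled out after the values were seen, and results that rest on them are given with and without them. The table gives *sgg* as 1 count summed over the gene, in which the deleted exon cannot be seen, so it is no check of the labels. It was 262, 276 and 324 CPM (the count after libraries were brought to one size) in the isoA null samples and 262, 269 and 192 in their controls, and 340, 271, 330 and 261 CPM in the isoB null samples and 384, 326, 350 and 356 in theirs. Transcripts of muscle (11 genes, 20958 to 32382 CPM summed per library) and of neurons (9 genes, 866 to 1334 CPM) were present in every library.

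Together the 67 genes took 1.17% of the scaled library in isoA null embryos, 1.41% in isoA controls, 1.08% in isoB null embryos and 1.17% in isoB controls. Complex V held the largest sum, with a mean of 4914 ± 155 CPM in isoA null embryos and 5934 ± 862 in their controls (SD, n = 3), and of 4580 ± 170 in isoB null embryos and 4946 ± 391 in their controls (SD, n = 4). Complex I followed with 3350 ± 109, 4028 ± 620, 2943 ± 102 and 3245 ± 178 CPM in the same order. Complex III had 1511 ± 56.1, 1810 ± 265, 1441 ± 56.5 and 1517 ± 112 CPM, complex IV 1409 ± 2.89, 1747 ± 273, 1292 ± 48.9 and 1422 ± 91.9, and complex II, the smallest, 520 ± 15.9, 590 ± 44.1, 527 ± 25.6 and 549 ± 37.9. The order of the 5 means was the same in all 4 conditions, although the libraries of complexes III and IV overlapped in both control groups. In each complex the mean of the null samples was below that of their controls, in both experiments.

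**Figure D1:**
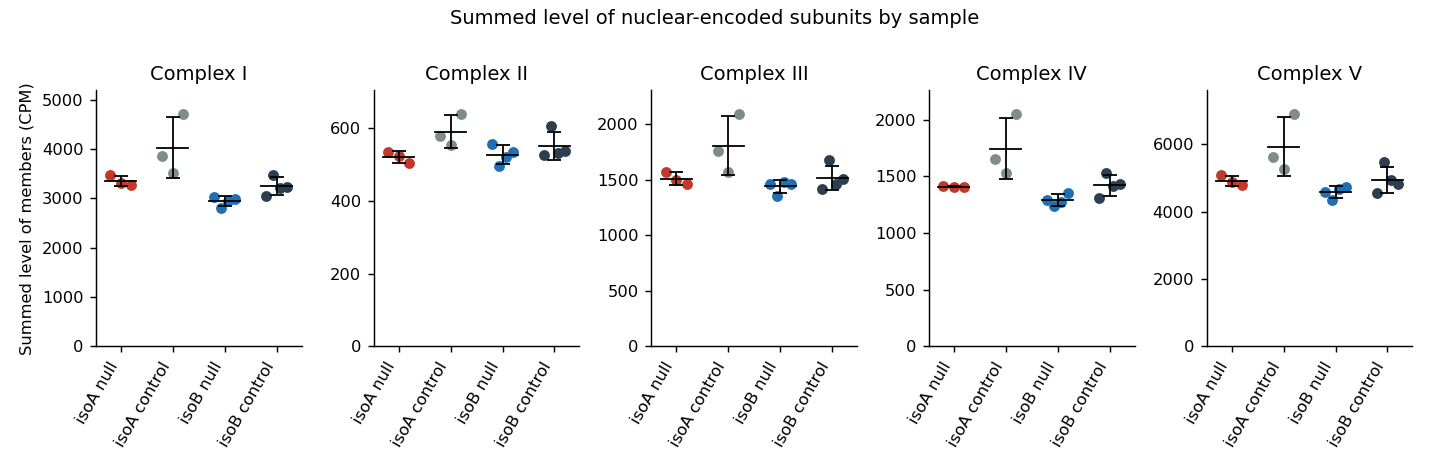
Summed level of the nuclear-encoded subunits of each complex in CPM, a panel for each complex, with 1 point for each sample and the mean and SD of each group. The isoA null samples lie below all their controls in every panel, whereas the isoB groups separate only for complex I (2797 to 3027 CPM in null samples, 3050 to 3480 in controls).

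Per kilobase of exon, the subunits of complex V were also the most abundant, with a median over the 11 genes other than the paralogue of 279 CPM per kb in isoA null embryos, 343 in isoA controls, 233 in isoB null embryos and 265 in isoB controls. Complex IV followed (227, 320, 213 and 228 over 7 genes), then complex III (175, 205, 171 and 187 over 7). Complexes I (99.6, 122, 84.8 and 99.0 over 32) and II (93.9, 108, 96.1 and 99.3 over 4) had the lowest medians. ATPsynC, which builds the rotating ring of the membrane sector, ranked first of the 61 in every condition (743, 900, 727 and 770 CPM per kb). ATPsynbeta, the catalytic subunit of the F1 head, ranked second in every condition (635, 750, 620 and 635). At the other end, ND-AGGG and ND-MWFE, small membrane arm subunits of complex I, ranked 60 and 61. ND-MWFE shares 35% of its exon length with another gene, and reads on shared bases were dropped in the counting, so its level per kilobase is an underestimate. The same holds for UQCR-6.4 (40.5% shared), ATPsyndelta (35.6%) and ND-B22 (26.1%); a further 27 of the 67 share a smaller part.

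The first comparison asks what the loss of all Sgg-PA class proteoforms does to transcript levels. In isoA null embryos the subunits were slightly below control, in every complex, but no single one passed the test. The median log2 fold change over the 65 genes tested was -0.27 (a difference of -17.3%), against a median of -0.01 over all 10397 genes, and 60 of the 65 had a negative value (92.3%, against 50.9% of all genes). By edgeR's quasi-likelihood test, 0 of the 65 were called at an adjusted p of at most 0.05 and 0.7 or more above or below 0 on the log2 scale, where 0.971% of all genes were called. At the adjusted p alone, 0 of 65 were lower, against 0.702% of all genes. At an unadjusted p under 0.05, 23 were lower (35.4%, against 9.52% of all genes) and 1 was higher. In 35 of the 65 every null sample lay below every control (53.8%, against 13.2%). DESeq2 put 1 gene past the adjusted p (ND-B17.2, log2 fold change -0.47, adjusted p = 0.0367), where it put 312 of all 10397 genes lower, and limma-voom 0, and both called 0 with the fold threshold.

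These isoA values rest in part on control 3. Without it the median was -0.14 and 6 genes were lower at the unadjusted p. Without null 1, 2 or 3 that count was 7, 3 and 5, and without control 2 it was 38, while the median stayed between -0.35 and -0.25. The count was also 9 with the replicate number as a block, 36 with upper quartile factors and 43 with all samples in one fit. The share of all genes at the unadjusted p was not counted in these alternatives, so these counts have no background beside them. At the adjusted p, 73 of all genes were lower in the main fit. That number was 163 without control 3, 87 without control 2, and 3, 3 and 1 without null 1, 2 or 3. The summed level of all members was 12075, 11623 and 11414 CPM in the null samples and 13473, 12442 and 16413 in the controls. The groups did not overlap, and the mean was lower by 17.0%, or by 10.3% without control 3. Whole embryos were measured, so that fewer cells rich in mitochondria and less RNA per cell cannot be told apart.

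**Figure D2:**
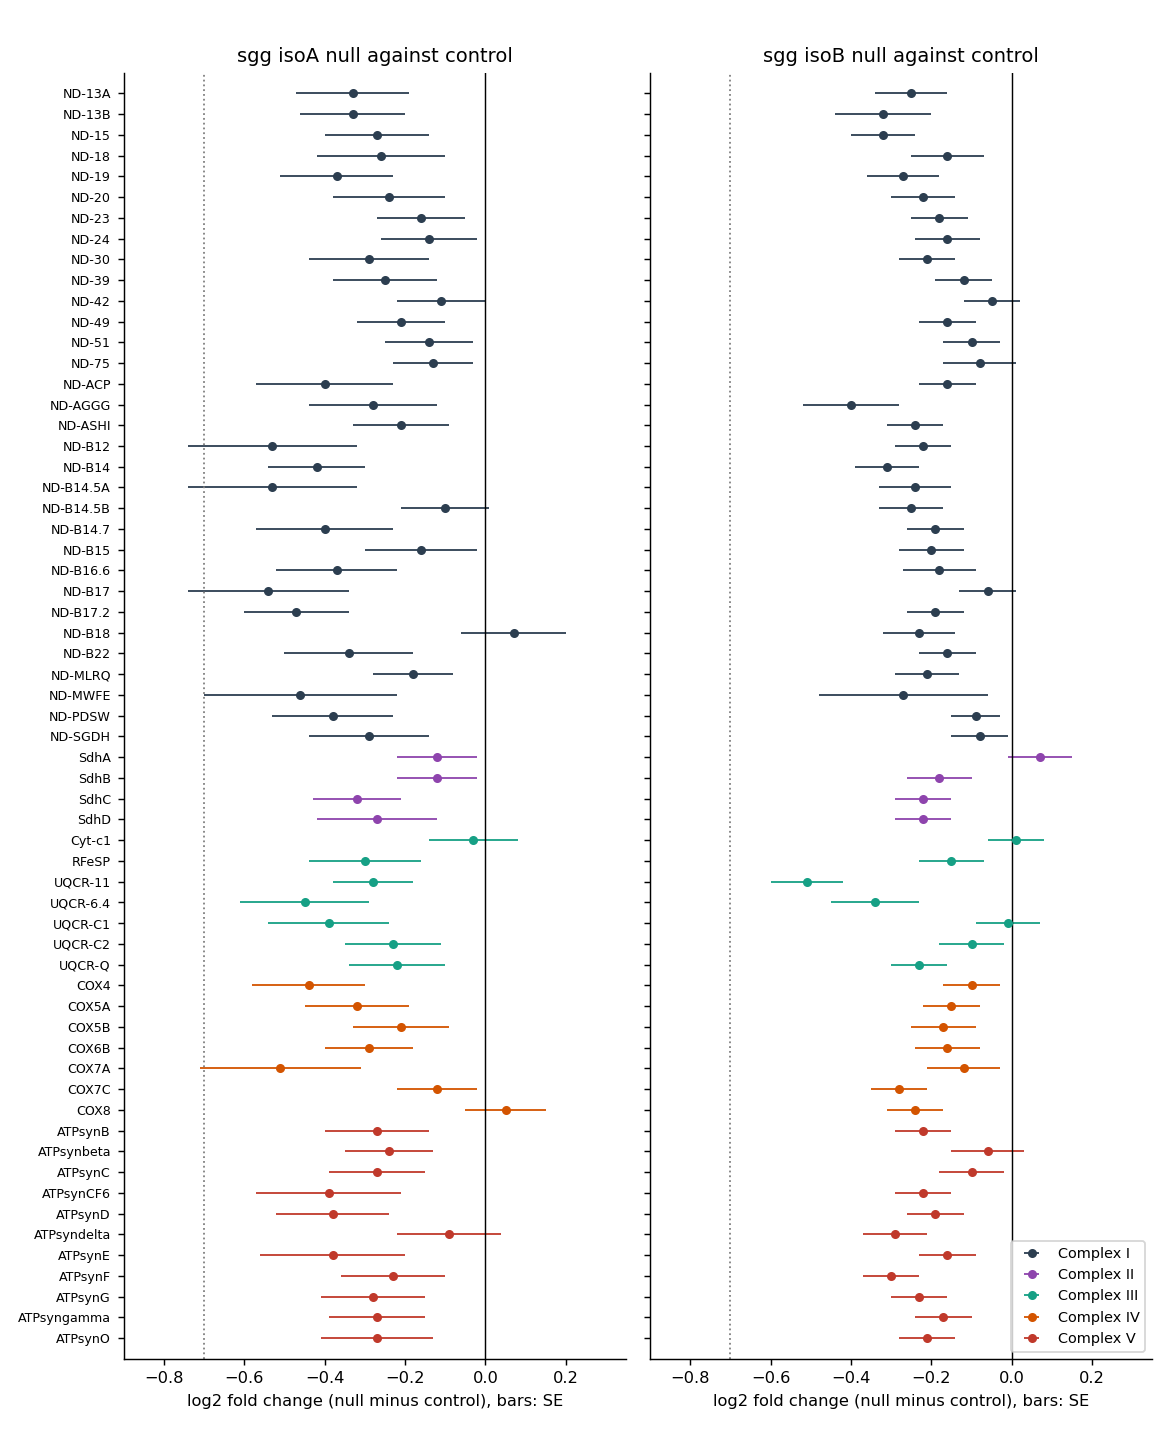
Log2 fold change of null against control embryos for each of the 61 subunits, from complex I at the top to complex V at the bottom, with the standard error as bars and a dotted line at -0.7; isoA on the left and isoB on the right. In each experiment 59 of the 61 points lie below 0 and none reaches the dotted line.

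Complex I showed 31 of 32 negative values in the isoA experiment, with a median of -0.28 (-0.15 without control 3). The lowest value was that of ND-B17, an accessory subunit of the membrane arm, with 77.9, 77.1 and 75.7 CPM in null samples and 101, 84.8 and 151 in controls. The groups did not overlap, control 3 was far above the others, and the log2 fold change was -0.54 (SE 0.20, adjusted p = 0.206). ND-B17.2, an accessory subunit of the matrix arm, had 57.5, 56.9 and 54.0 CPM against 72.8, 70.3 and 91.1. Its controls were closer to each other, and its log2 fold change of -0.47 (SE 0.13, adjusted p = 0.136) was the one past the threshold in DESeq2. ND-B14 had 62.6, 62.5 and 56.8 CPM against 73.6, 78.7 and 91.5. Its null samples too lay below all controls (-0.42, SE 0.12, adjusted p = 0.150). The highest value was that of ND-B18, with 77.1, 66.2 and 66.5 CPM against 59.5, 72.6 and 68.3, where the groups overlapped (0.07, SE 0.13).

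Within complex I, the catalytic core, the 7 conserved subunits of the matrix arm that carry electrons from NADH to ubiquinone, had a median closer to 0 than that of the 25 accessory subunits. The median log2 fold change of the core was -0.16 in isoA (-0.11 without control 3), with values of -0.13 for ND-75, -0.14 for ND-51 and ND-24, -0.16 for ND-23, -0.21 for ND-49, -0.24 for ND-20 and -0.29 for ND-30. None of the 7 had an unadjusted p under 0.05. ND-51, the flavin subunit that takes the electrons from NADH, had 210, 192 and 182 CPM against 217, 201 and 228, and the groups overlapped. The accessory subunits had a median of -0.33 (-0.20 without control 3), and 12 of the 25 had an unadjusted p under 0.05 with a lower level. Of all genes, 9.52% did. The core genes have longer exons, with a median of 1336 bp against 807 bp for the accessory genes. The difference between core and accessory subunits was not tested.

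All 4 subunits of complex II, the succinate dehydrogenase, had negative values in the isoA experiment, with a median of -0.20 (-0.10 without control 3). SdhA, the flavoprotein that oxidises succinate, and SdhB, its iron-sulphur partner, both had -0.12 (SE 0.10). The membrane anchor subunits had -0.32 for SdhC (SE 0.11, adjusted p = 0.187) and -0.27 for SdhD (SE 0.15). SdhC had 100, 97.6 and 86.8 CPM in null samples and 119, 117 and 119 in controls. Here control 3 did not stand out, and the groups did not overlap.

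In complex III, all 7 subunits other than the paralogues had negative values, with a median of -0.28 (-0.15 without control 3). UQCR-6.4, a small accessory subunit, had the lowest, at 67.1, 62.9 and 60.8 CPM against 79.4, 72.1 and 110 (-0.45, SE 0.16, adjusted p = 0.203). UQCR-C1, a core protein on the matrix side, had 441, 418 and 380 CPM against 536, 431 and 658 (-0.39, SE 0.15). Its groups overlapped, since control 2 was below null 1. Its partner UQCR-C2 had -0.23 (SE 0.12) and RFeSP, the Rieske iron-sulphur protein, -0.30 (SE 0.14). Cyt-c1, which hands electrons to cytochrome c, had 320, 291 and 320 CPM against 296, 318 and 337 and a log2 fold change of -0.03 (SE 0.11), the smallest difference among the 61. Its sign turned without control 3 (0.01) and without null 2 (0.03).

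Complex IV, cytochrome c oxidase, takes its catalytic subunits from mitochondrial DNA, and the nuclear-encoded subunits surround them. Of the 7 other than the paralogues, 6 had negative values, with a median of -0.29 (-0.19 without control 3). COX7A had 154, 163 and 151 CPM in null samples and 204, 162 and 303 in controls. Its value of -0.51 (SE 0.20, adjusted p = 0.236) was the lowest of the complex, with a wide spread between the controls. COX4, a subunit that binds adenine nucleotides in mammals, had 317, 301 and 305 CPM against 397, 349 and 513. The groups did not overlap (-0.44, SE 0.14, adjusted p = 0.175). COX5A had -0.32 (SE 0.13), COX5B -0.21 (SE 0.12) and COX7C -0.12 (SE 0.10). COX8 had the highest value, at 104, 109 and 110 CPM against 107, 104 and 103 (0.05, SE 0.10), and was one of 3 subunits for which control 3 was not the highest library of the experiment.

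All 12 complex V genes had negative values in the isoA experiment, with a median of -0.27 (-0.15 without control 3). ATPsynbeta had 1609, 1491 and 1445 CPM in null samples and 1752, 1631 and 1984 in controls. Its groups did not overlap, and the log2 fold change was -0.24 (SE 0.11, adjusted p = 0.271). ATPsynC had 1416, 1415 and 1335 CPM against 1566, 1526 and 1954, also without overlap (-0.27, SE 0.12, adjusted p = 0.258). ATPsyngamma, the central shaft, had -0.27 (SE 0.12). The lowest value other than the paralogue was -0.39 for ATPsynCF6 (SE 0.18), a subunit of the peripheral stalk, and the highest -0.09 for ATPsyndelta (SE 0.13). The 4 peripheral stalk subunits had a median of -0.33, or -0.15 without control 3.

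The second comparison asks the same for the zygotic loss of the Sgg-PB class. In isoB null embryos the subunits were again slightly below control in every complex, and 6 of 67 passed the adjusted p. The median log2 fold change over the 67 was -0.19 (-12.1%), against -0.01 over all 10693 genes, and 62 of 67 were negative (92.5%, against 50.9% of all genes). With both thresholds 0 of 67 were called, against 4.56% of all genes. At the adjusted p alone 6 of 67 were lower (8.96%, against 6.89% of all genes, so near the background) and 0 were higher. At an unadjusted p under 0.05, 36 were lower (53.7%, against 17.9%) and 0 higher, and in 32 every null sample lay below every control (47.8%, against 12.5%). DESeq2 put 13 members lower at the adjusted p, against 10.1% of all genes, and limma-voom 6, against 6.97%, and both called 0 with the fold threshold. The 6 are spread over complexes I, III, IV and V.

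Control 2 was the high library here, and without it the median was -0.16, with 19 genes lower at the unadjusted p and 1 past the adjusted p. Without null 2 those counts were 20 and 1. Of all genes, 2.02% were lower at the adjusted p without control 2 and 3.76% without null 2. The share of all genes at the unadjusted p was not counted there. The summed level of all members was 10923, 10232, 10892 and 11088 CPM in the null samples and 10859, 12778, 11542 and 11538 in the controls. Control 1 lay among the null samples, so that the groups overlapped. The mean was lower by 7.67%, or by 4.69% without control 2.

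UQCR-11, a small accessory subunit of complex III (FBgn0260008, chromosome arm 3L, 25120709 to 25126171 of the Release 6 assembly), was the member with the firmest difference. It had 62.3, 58.3, 58.1 and 67.1 CPM in the isoB null samples and 78.2, 96.8, 80.9 and 88.8 in their controls. Each null sample lay well below each control, and the level fell by 0.51 on the log2 scale (SE 0.09, adjusted p = 0.0111). UQCR-11 passed the adjusted p in every alternative (adjusted p from 6.64e-05 to 0.0376) other than the fit with the replicate number as a block (0.0625). Its log2 fold change ran from -0.56 to -0.45 and did not reach the fold threshold in any. In the isoA experiment its levels were 108, 106 and 110 CPM in null samples and 129, 125 and 139 in controls, again without overlap (-0.28, SE 0.10, adjusted p = 0.214).

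The other 5 that passed had smaller differences. ATPsynF, a membrane subunit of complex V (FBgn0035032, 2R, 24599088 to 24599821), had 178, 153, 163 and 177 CPM in null samples and 202, 208, 202 and 199 in controls. Its controls were close to each other, and it fell by 0.30 (SE 0.07, adjusted p = 0.0253). ND-15, an accessory subunit of complex I (FBgn0031228, 2L, 114726 to 156030), had 67.1, 64.4, 64.6 and 72.8 CPM against 77.8, 90.2, 79.0 and 83.0. The groups did not overlap, and it fell by 0.32 (SE 0.08, adjusted p = 0.0309). ND-B14 (FBgn0033570, 2R, 10897144 to 10897885), another accessory subunit of complex I, had 53.0, 49.6, 50.4 and 49.9 CPM against 55.2, 67.3, 63.6 and 62.8. Control 1 was the closest to the null samples, and ND-B14 fell by 0.31 (SE 0.08, adjusted p = 0.0345). COX7C of complex IV (FBgn0040773, 2R, 10048353 to 10050066) had 121, 115, 118 and 125 CPM against 131, 155, 141 and 147. It fell by 0.28 (SE 0.07, adjusted p = 0.0378), again with control 1 nearest to the null samples. ATPsyndelta, part of the central stalk of complex V (FBgn0028342, X, 10212970 to 10217393), had 150, 129, 150 and 143 CPM against 162, 186, 169 and 173. It fell by 0.29 (SE 0.08, adjusted p = 0.0401). Without isoB control 2, 3 or 4 or null 2 or 3, none of these 5 passed the adjusted p, and UQCR-11 alone did. In those fits 2.02%, 1.70%, 4.14%, 3.76% and 3.11% of all genes were lower at the adjusted p, in that order. Without control 1, 9 members passed (5.95% of all genes were lower there), with 5 without null 1 (6.89%) and 7 without null 4 (8.98%).

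**Figure D3:**
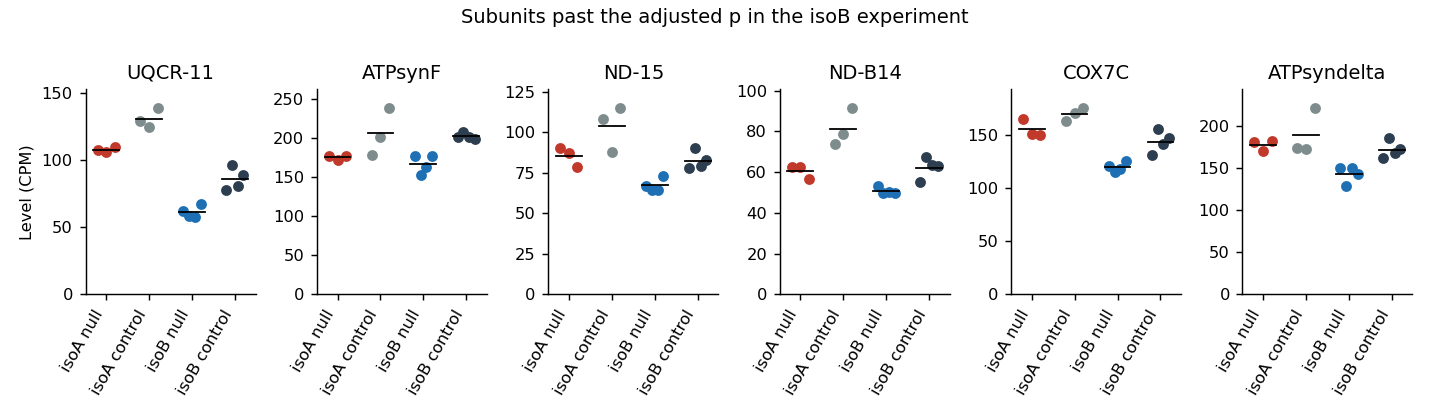
Level in CPM of the 6 subunits past the adjusted p in the isoB experiment, a panel for each gene, with 1 point for each sample and a line at the mean of each group. In the isoB groups no null sample reaches the lowest control; in the isoA groups UQCR-11 and ND-B14 separate, and the points of the other 4 overlap or nearly touch.

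In complex I, all 33 genes had negative values in the isoB experiment, with a median of -0.20 (-0.17 without control 2). Of these, 20 had an unadjusted p under 0.05, where 17.9% of all genes had one with a lower level. Other than the paralogue, ND-AGGG was the lowest, at 12.1, 11.1, 9.12 and 12.0 CPM against 12.6, 15.3, 14.8 and 14.9 (-0.40, SE 0.12, adjusted p = 0.0667). ND-42, an accessory subunit, was the highest (-0.05, SE 0.07), with 196, 198, 207 and 188 CPM against 198, 212, 194 and 203. ND-B17, the lowest of the isoA experiment, had 72.7, 66.5, 72.4 and 71.5 CPM against 71.4, 76.2, 71.9 and 70.8. Its groups overlapped, and its value was -0.06 (SE 0.07). The catalytic core had a median of -0.16 (-0.11 without control 2). Its values were -0.08 for ND-75, -0.10 for ND-51, -0.16 for ND-49 and ND-24, -0.18 for ND-23, -0.21 for ND-30 and -0.22 for ND-20, and 3 of the 7 had an unadjusted p under 0.05. The accessory subunits had a median of -0.21 (-0.18 without control 2), and 17 of 25 had an unadjusted p under 0.05.

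In complex II the median was -0.20 in the isoB experiment (-0.14 without control 2), and the membrane anchor subunits had the lower values. Their genes are also shorter, with a median exon length of 900 bp against 1984 bp for SdhA and SdhB. The difference between these pairs was not tested. SdhA had 264, 224, 237 and 241 CPM in null samples and 214, 249, 219 and 222 in controls, and a log2 fold change of 0.07 (SE 0.08), the highest among the 61. Its groups overlapped, as did those of SdhB (-0.18, SE 0.08). SdhC had 94.1, 97.3, 93.7 and 99.0 CPM against 103, 121, 109 and 108, without overlap (-0.22, SE 0.07, adjusted p = 0.0791), and SdhD -0.22 (SE 0.07, adjusted p = 0.0699).

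Complex III had a median of -0.15 in the isoB experiment (-0.10 without control 2) over its 7 subunits other than the paralogues. Its 3 small accessory subunits UQCR-11, UQCR-6.4 and UQCR-Q had a median of -0.34 (-0.27 without control 2), with all 3 at an unadjusted p under 0.05. Of all genes, 17.9% were lower at that p. UQCR-6.4 had -0.34 (SE 0.11, adjusted p = 0.0673) and UQCR-Q -0.23 (SE 0.07, adjusted p = 0.0658). The other 4, Cyt-c1 (0.01, SE 0.07), UQCR-C1 (-0.01, SE 0.08), UQCR-C2 (-0.10, SE 0.08) and RFeSP (-0.15, SE 0.08), had a median of -0.05 (0.01 without control 2), and none had an unadjusted p under 0.05. UQCR-C1 had 459, 410, 465 and 438 CPM in null samples and 404, 494, 426 and 430 in controls, which overlapped widely. The accessory genes had a median exon length of 975 bp and the other 4 of 1576 bp. In the isoA experiment the medians of these groups were -0.28 and -0.26, or -0.24 and -0.14 without control 3. The difference between the groups was not tested.

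The complex IV subunits ranged from -0.28 for COX7C to -0.10 for COX4 in the isoB experiment, leaving out the paralogues, with a median over the 7 of -0.16 (-0.12 without control 2). COX8, at 90.2, 92.5, 91.2 and 95.4 CPM in null samples and 98.2, 114, 105 and 112 in controls, had no overlap between groups (-0.24, SE 0.07, adjusted p = 0.0647). COX4 had 292, 282, 308 and 309 CPM against 293, 342, 313 and 310, with overlap (-0.10, SE 0.07). COX5A had -0.15 (SE 0.07), COX5B -0.17 (SE 0.08) and COX7A -0.12 (SE 0.09).

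In complex V, ATPsynbeta and ATPsynC, the most abundant subunits, differed least in the isoB experiment, leaving out the paralogue. ATPsynbeta had 1479, 1425, 1480 and 1536 CPM in null samples and 1320, 1747, 1532 and 1466 in controls. The controls spread more widely than the null samples, and the value of -0.06 (SE 0.09) turned to 0.02 without control 2. ATPsynC had 1349, 1281, 1404 and 1401 CPM against 1316, 1602, 1440 and 1398 (-0.10, SE 0.08). The 4 subunits of the peripheral stalk, which holds the F1 head in place, had a median of -0.21 (-0.17 without control 2). Each had an unadjusted p under 0.05, at which 17.9% of all genes were lower. ATPsyngamma had -0.17 (SE 0.07). ATPsynbeta and ATPsynC have exon lengths of 2386 and 1868 bp, and the peripheral stalk genes a median of 860 bp. ATPsyndelta, the longest at an annotated 3817 bp, of which 35.6% is shared with another gene, had -0.29. Leaving out the paralogue, its level per kilobase was the lowest of complex V. Whether its annotated length fits the transcripts counted was not tested. The difference between these subunits was not tested.

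Whether the 2 effects differ was tested with an interaction term over the 14 samples. At the adjusted p it called 0 of the 67 members, against 2.54% of 11021 genes. The share of all genes at an unadjusted p under 0.05 was not counted, and 6 members (8.96%) had one. Of these, ND-B17 (isoB minus isoA 0.51, SE 0.20, adjusted p = 0.166), UQCR-C1 (0.41, SE 0.17, adjusted p = 0.193), COX4 (0.37, SE 0.15, adjusted p = 0.186) and ND-B17.2 (0.31, SE 0.14, adjusted p = 0.208) had the more negative value in isoA. COX8 (-0.26, SE 0.10, adjusted p = 0.170) and the low paralogue UQCR-11L (-2.26, SE 0.65, adjusted p = 0.0736) had it in isoB. Limma-voom called 0 as well. ND-B17 passed the adjusted p without isoA control 2 (0.64, adjusted p = 0.0455), and UQCR-11L without isoB null 4 (-2.79, adjusted p = 0.0259). Of the 61 genes, 59 were below control in each experiment, against 50.9% of all genes, and 57 were in both. The share of all genes below control in both was not counted. The log2 fold changes of the 61 were nearly unrelated between the experiments (Pearson's r = 0.09 across genes, which are not independent replicates).

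**Figure D4:**
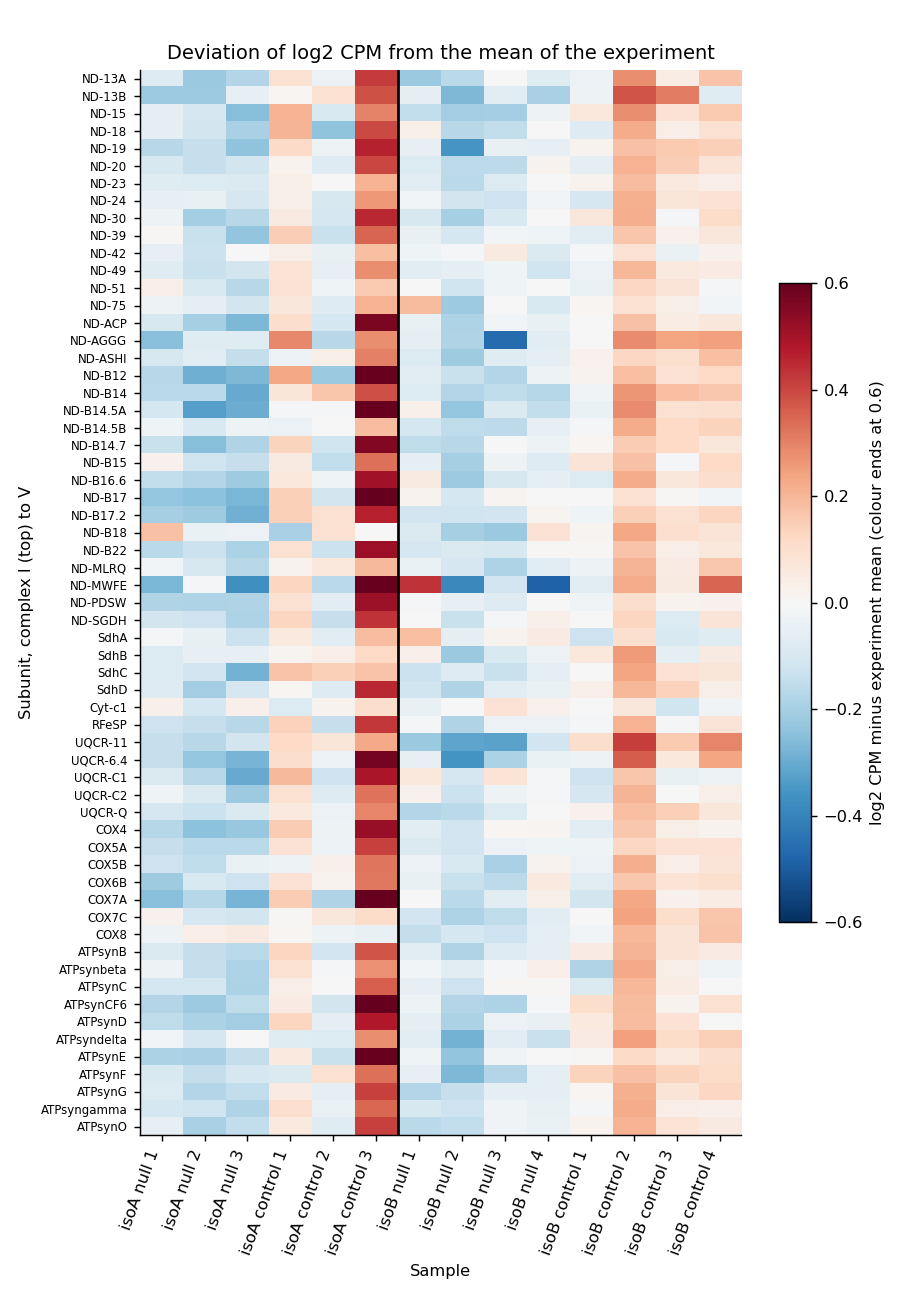
Log2 CPM of each of the 61 subunits in each of the 14 samples, as the deviation from the gene's mean over its experiment; red is above and blue below that mean. The column of isoA control 3 is red for nearly all subunits (median deviation 0.37), as, more weakly, is that of isoB control 2 (0.22), and isoA null 2 and 3 and isoB null 2 have the lowest medians (-0.15 each).

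The shift of the members was also read sample by sample, as a median over the 61 subunits. Nearly all subunits moved at once in isoA control 3 and isoB control 2, the highest libraries for 58 and 57 of them. In the isoA experiment the median deviation of the 61 from their experiment's mean was 0.06, -0.02 and 0.37 on the log2 scale in controls 1, 2 and 3, and -0.09, -0.15 and -0.15 in the null samples. In the isoB experiment it was -0.01, 0.22, 0.07 and 0.09 in the controls and -0.08, -0.15, -0.07 and -0.05 in the null samples. Each null sample thus lay below each control by this measure, by a margin smaller than the spread among the controls.

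Exon length moved with the result. The members are short, with a median exon length of 894 bp over the 61 against 2038 bp over all genes kept in the isoB experiment, and 57 of the 61 are under 2000 bp. In the isoA experiment the median log2 fold change of all other genes went from -0.36 at up to 500 bp through -0.20 (500 to 1000 bp), -0.09 (1000 to 2000 bp) and 0.03 (2000 to 4000 bp) to 0.14 above 4000 bp. The members had -0.32 (37 genes), -0.24 (19 genes) and -0.13 (4 genes) in the 3 middle classes, below the other genes of the same length in each. In the isoB experiment the other genes had -0.20, -0.12, -0.04, 0.04 and 0.05, and the members -0.22, -0.16 and -0.07 in the middle classes. Without isoA control 3 the values for 500 to 1000 bp were -0.11 for other genes and -0.19 for members, and without isoB control 2 they were -0.12 and -0.18. With the trend on exon length of each sample removed, an alternative added after the data were seen, the median of the members was -0.15 in isoA and -0.06 in isoB. The numbers lower at an unadjusted p under 0.05 were then 7 and 5, and UQCR-11 (-0.46) and ATPsyndelta (-0.31) passed the adjusted p in isoB. Leaving out the paralogues, these genes had the lowest level per kilobase of complexes III and V. The offset rests on their annotated exon lengths, and whether these fit the transcripts counted was not tested. Of all genes, 0.779% in isoA and 6.41% in isoB were lower at the adjusted p, and the share at the unadjusted p was not counted. The cause of the length trend was not tested.

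**Figure D5:**
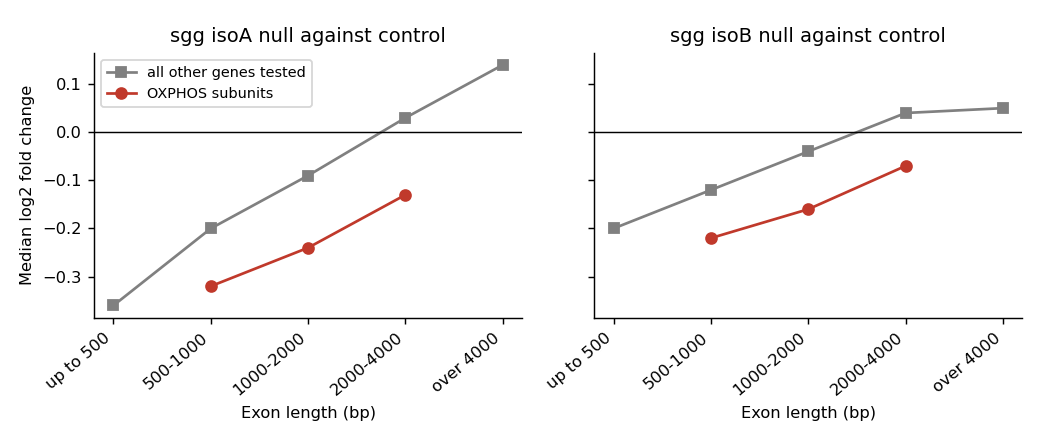
Median log2 fold change of null against control embryos by exon length in bp, for the OXPHOS subunits (circles, classes with more than 1 member) and all other genes tested (squares). In both experiments shorter genes have the lower medians, and the subunits lie below the other genes in each class that holds several of them.

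The 6 paralogues were close to the detection limit and showed no common direction. UQCR-11L, with 4 to 23 counts per library, had 1.19, 0.680 and 0.944 CPM in isoA null samples and 0.469, 0.490 and 0.362 in their controls. It was the single member that was higher in every isoA null sample than in every control (1.09, SE 0.43, adjusted p = 0.232). In the isoB experiment it had 0.286, 0.162, 0.170 and 0.532 CPM in null samples and 0.374, 0.814, 0.747 and 0.747 in controls (-1.20, SE 0.45, adjusted p = 0.108). Without isoB null 4 it was the 1 member called with the fold threshold (-1.72, adjusted p = 0.0325). The others had values of 0.47 and 0.31 for Cyt-c1L, 0.35 and 0.20 for COX4L and -0.64 and 0.07 for ATPsynepsilonL in isoA and isoB, and in isoB alone -0.67 for ND-51L1 and -0.10 for COX6AL, with standard errors from 0.30 to 0.48.

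A later annotation gives names that begin in the same way to 23 genes that the rule did not take. Of these SdhAL, SdhBL and SdhCL carry an added letter that the rule leaves out, and SdhBL had that name in the authors' tables too. Of the 23, 13 had at most 3 counts in every library and 6 had 0 in every library. For 3 of the 6, UQCR-14, ND-MNLL and COX5BL, all exon bases are shared with another gene, so that the counting left them no reads, and their level is unknown. Across the count file 519 of the 540 genes with wholly shared exons were at 0 (96.1%), against 1326 of 16822 other genes (7.88%). COX7B, listed under its older symbol CG7630, had 1182 to 2964 counts per library and was left out by its name alone.

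The 13 subunits encoded by mitochondrial DNA, which join these complexes, took other values. In isoA, 12 of 12 tested were negative, with a median log2 fold change of -0.86, and 6 were called, from mt:ND3 (-2.19, SE 0.30, adjusted p = 0.0202) to mt:ND1 (-0.81, SE 0.10, adjusted p = 0.0197). Their summed level was 7942 to 8520 CPM in null samples and 11730 to 16404 in controls. The study had already picked out this group in these same samples, so the list is not independent evidence of its direction. In isoB, 8 of 13 were negative with a median of -0.11, and 0 passed the adjusted p in edgeR, DESeq2 or limma-voom, nor was any at an unadjusted p under 0.05 (0 of 13). Leaving out 1 library moved that median from -0.22 (without null 3) to 0.07 (without null 1). A list of nuclear-encoded genes under other names held the subunits blw, sun, ox, cype and levy and the cytochrome c genes Cyt-c-p and, in isoB, Cyt-c-d. Of these, 0 passed the adjusted p in isoA by edgeR, DESeq2 or limma-voom. At an unadjusted p under 0.05, 3 were lower in isoA, against 9.52% of all genes. In sign, 5 of 6 were negative in isoA (median -0.36, -0.15 without control 3) and 6 of 7 in isoB (median -0.20). The exceptions were Cyt-c-p in isoA and Cyt-c-d in isoB (1.07, SE 0.50, adjusted p = 0.180), so every subunit of the list was negative in both. In isoB, ox of complex III fell by 0.36 (SE 0.09, adjusted p = 0.0290) and sun, the epsilon subunit of complex V, by 0.34 (SE 0.08, adjusted p = 0.0296). blw, the alpha subunit of the F1 head, had -0.16 in isoA and -0.06 in isoB, close to its partner ATPsynbeta. Cyt-c-p, the main cytochrome c, had 0.23 in isoA (SE 0.11) and -0.26 in isoB (SE 0.08, adjusted p = 0.0620).

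Lists of genes that act around the chain had medians above the -0.27 and -0.19 of the subunits, but not in every alternative. In isoB the assembly factors were at or below the subunits without control 2 (-0.17 against -0.16), without control 3 (-0.19 for both) and without null 3 (-0.22 against -0.19). With the exon length offset they were below them in isoB (-0.09 against -0.06), as were the enzymes of the tricarboxylic acid cycle and pyruvate dehydrogenase in isoA (-0.24 against -0.15). Not all symbols of these lists matched a gene in the counts. For the assembly factors 13 of 25 did and 12 were tested, and for the tricarboxylic acid cycle and pyruvate dehydrogenase 16 of 23 did. Assembly factors had medians of -0.14 in isoA (10 of 12 negative) and -0.16 in isoB (11 of 12), with 0 past the adjusted p by edgeR and 3 lower at an unadjusted p under 0.05 in each experiment. Of all genes, 9.52% in isoA and 17.9% in isoB were lower at that p. The isoA median was 0.00 without control 3. DESeq2 and limma-voom each put 1 past it in isoB and 0 in isoA. Surf1, needed for complex IV assembly, came closest in isoB (-0.46, SE 0.13, adjusted p = 0.0513). Enzymes of the tricarboxylic acid cycle and pyruvate dehydrogenase had medians of -0.18 (15 of 16 negative) and -0.06 (10 of 16). By edgeR 0 passed the adjusted p in either, with 4 and 1 at an unadjusted p under 0.05, and DESeq2 put 1 past it in isoA. Without the high controls their medians were -0.12 and -0.01. Carriers and porin had -0.17 (6 of 6) and -0.02 (3 of 6), or -0.08 and 0.03 without the high controls, of which colt, the carnitine carrier, fell by 0.48 in isoB (SE 0.08, adjusted p = 0.0101). Regulators of mitochondrial biogenesis had 0.22 (2 of 7 negative, 0.15 without control 3) and -0.03 (4 of 7), with 0 past the adjusted p by any of the 3 tools and 1 at an unadjusted p under 0.05 in each experiment. The difference between these lists and the subunits was not tested.

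Marker lists of eggshell and yolk, early patterning, muscle and neuronal transcripts were also compared between groups. Eggshell and yolk transcripts, made in the mother, had a median log2 fold change of 2.14 in isoA (0 of 10 negative) and summed to 55.5 to 102 CPM in null samples and 16.1 to 29.2 in controls. Of the 10, 9 had an unadjusted p under 0.05, and edgeR put 1 past the adjusted p, DESeq2 6 and limma-voom 0. The share of all genes higher at the unadjusted p was not counted. Counts were low, from 0 to 34 per isoA library for Vml to 14 to 560 for Cp38. In isoB, 3 were tested (median 0.61, or 0.50 to 1.67 with 1 library left out), and the sum was 8.39 to 14 CPM against 5.78 to 7.95. The 1 called, Vml, had 3 to 32 counts per library, and Yp2 had 2 to 17 and Yp3 61 to 240. Early patterning transcripts, taken as markers of younger embryos, had medians of 0.22 in isoA (3 of 13 negative) and 0.24 in isoB (3 of 14). How they change with age was not measured here. Their sum was 239 to 275 CPM in null samples and 225 to 240 in controls in isoA, with overlap. In isoB it was 279 to 311 against 228 to 264. By edgeR, 0 of these transcripts passed the adjusted p in isoA and 1 in isoB. Of them h, a pair-rule gene, rose by 0.52 in isoB (SE 0.10, adjusted p = 0.0144) and had -0.61 in isoA (SE 0.18, adjusted p = 0.155). DESeq2 put 1 of the list past the adjusted p in isoA and 2 in isoB. Muscle transcripts had medians of -0.08 and -0.26, and neuronal transcripts of -0.01 and -0.13. In isoB, 11 of 11 muscle transcripts were negative, with 0 past the adjusted p by edgeR and 2 by DESeq2. At an unadjusted p under 0.05, 6 of them were lower, against 17.9% of all genes. Without isoB null 2 the isoB medians were -0.14 for muscle and -0.02 for neurons. With each isoA library left out the isoA medians ran from -0.12 to -0.04 and from -0.06 to 0.10. The muscle sum was 23007 to 27514 CPM in isoA null samples and 24996 to 27835 in their controls, and 20958 to 29794 against 26865 to 32382 in isoB, with overlap in both. The part of these markers in the levels of the subunits was not tested.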

How the data were processed

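Poly(A) RNA of 14 samples of whole embryos (3 isoA null and 3 control, 4 isoB null and 4 control) was sequenced as single-end reads. Alignment by the authors used TopHat2 2.1.1 and Bowtie2 2.3.4.0, and reads were counted with Rsubread over the exons of FlyBase annotation 6.20. The deposited values used here are these raw counts for 17493 genes, which were not normalized. With default settings the counting ignores strand and drops reads that overlap more than 1 gene. The deposited log2 CPM values, log2 fold changes and p-values of the authors, from limma-voom, were not used.

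Each experiment was fitted on its own in R 4.3.3 with edgeR 4.0.16: filterByExpr (minimum count 10, minimum total count 15), TMM scaling and the two-sided quasi-likelihood test, with Benjamini-Hochberg adjustment over all 10397 (isoA) and 10693 (isoB) genes kept. Calls needed an adjusted p of at most 0.05 and an absolute log2 fold change of 0.7 or more, the thresholds of the study, and the adjusted p alone was a second rule. The interaction was tested in a joint model of the 14 samples with 4 group means. The standard error was taken from the fold change and its F statistic. Whether groups overlap was read from log2 CPM (prior count 2) scaled within each experiment. Levels in CPM were scaled over all 14 samples, so that a pair of close values can differ between these scales. Alternatives were DESeq2 1.42.0, limma-voom (limma 3.58.1), other size factors, no filter on low counts, the replicate number as a block, all samples in one fit, leaving out each sample, and, added after the data were seen, an offset for exon length. The edgeR tests were tested on simulated data. Total counts ran from 8082962 to 25124367 per sample.

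Members were taken by name. Members and the lists of related genes and markers were chosen with earlier results of these data known, and the grouping of subunits by role was written after their values had been seen. Members are named if they passed the adjusted p (for more than 10, the 10 with the largest changes), if they were the lowest or highest of their complex, or if they are catalytic or core subunits. ND-B17.2, ND-AGGG, ATPsynCF6, COX8, UQCR-Q and a few others were named after their values were seen. Positions, exon lengths and overlaps come from Ensembl release 115 (Release 6 assembly), in which 17362 of the identifiers matched and which is later than the annotation the reads were counted on. Same-numbered samples did not deviate together (correlations from -0.20 to 0.19), so the numbers were not taken to pair the samples.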

Additional observations from a re-analysis of the deposited data

Results flagged for a closer look

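In groups of 4 samples, a sample was set apart where its gap to the nearest other sample took most of the group's range (Dixon's test at 95%, which chance passes in about 1 of 20 groups). Of 84 groups of values tested in the isoB experiment, 4 held such a sample. RFeSP was 176 CPM in isoB null 2, where the other null samples had 195 to 198 (gap over range 0.885). The summed level of complex III was 1357 CPM in the same library, below 1464 to 1479 in the other null samples (0.882). The summed level of complex II was 606 CPM in isoB control 2, above 525 to 537 in the other controls (0.850). UQCR-11L was 0.374 CPM in isoB control 1, below 0.747 to 0.814 in the other controls (0.847). No explanation was tested for these values.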

How the results depend on the processing

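No member was called with the fold threshold under any isoA alternative, nor under any isoB alternative other than that without null 4. Leaving out each replicate in turn gave 0 to 1 members called in isoB and 0 to 1 past the adjusted p of the interaction. Members lower at the adjusted p alone numbered 0 in isoA, 1 with DESeq2 and 4 with all samples in one fit. In those fits 73, 312 and 300 of all genes were lower. In isoB they numbered 6 (6.89% of all genes), 13 with DESeq2 (10.1%), 1 without the filter on low counts (3.30%), 3 with all samples in one fit (5.75%), 2 with the exon length offset (6.41%), 0 with the replicate block (1.23%), and 1 to 9 with each replicate left out (1.70% to 8.98%). The number lower at an unadjusted p under 0.05 in isoB, 36, was 22 with all samples in one fit, 24 with the block and 5 with the exon length offset. The share of all genes at this p was not counted in those fits. The block took a number that did not pair the samples; over all genes it left 43 called of 101 in isoA and 170 of 488 in isoB. DESeq2 called 368 and 615 genes over all. The isoB median of the members moved from -0.19 to -0.06 with the exon length offset. Leaving out each replicate, the medians ran from -0.35 to -0.14 in isoA and -0.22 to -0.15 in isoB, and the differences of summed CPM from -21.2% to -10.3% and from -9.92% to -4.69%. Over the members named by rule, the sign turned for 8 isoA and 18 isoB values, each that of a member in a single alternative. With the exon length offset the turned values were 0.04 for COX7C, 0.05 for Cyt-c1 and 0.02 for ND-23 in isoA, and 0.05 for COX7A, 0.06 for ND-B17 and 0.04 for UQCR-C1 in isoB. UQCR-C1 in isoB also had 0.02 with DESeq2, RLE size factors or no filter, and 0.01 with all samples in one fit. With each replicate left out, values ran in isoA from -0.16 to 0.03 for ATPsyndelta, -0.09 to 0.03 for Cyt-c1 and -0.02 to 0.15 for ND-B18. In isoB they ran from -0.12 to 0.02 for ATPsynbeta, -0.13 to 0.38 for ATPsynepsilonL, -0.02 to 0.04 for Cyt-c1, -0.08 to 0.63 for Cyt-c1L, -0.15 to 0.00 for ND-75 and -0.05 to 0.06 for UQCR-C1. The causes were not tested. The isoA design of 3 against 3, with control libraries of lower depth, limits what differences of this size can show.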
